A study of Mus musculus with 58 samples.

Results

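The ON bipolar cell signalling genes are 10 genes of the pathway by which depolarizing bipolar cells of the retina answer light: Grm6, Trpm1, Nyx, Gpr179, Lrit3, Rgs7, Rgs11, Pcp2, Prkca and Gnao1. They were chosen by name as parts of the pathway, with earlier results of these data known, and all 10 were found among the 52459 genes of the count table and among the 18814 genes with enough reads to be tested. RNA had been sequenced from whole retinas of male mice, 4 months old, kept under a 12 h light and 12 h dark cycle and sampled at zeitgeber time (ZT, hours after lights on) 1, 5, 9, 13, 17 and 21. Control retinas (genotype C57/BL/6 in the labels) came from wild-type littermates, and diabetic retinas (C57BL/6-Ins2Akita/J) from mice heterozygous for the Akita mutation of the insulin gene Ins2, a model of insulin-deficient diabetes that needs no toxin. Control groups held 5, 6, 5, 5, 5 and 4 libraries from ZT1 to ZT21 (30 in all), and diabetic groups held 5, 5, 5, 4, 4 and 5 (28 in all), each from an individual retina.

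In darkness, photoreceptors release glutamate onto ON bipolar cells, where the receptor mGluR6 (Grm6) signals through the G protein subunit Gαo (Gnao1) and keeps the cation channel TRPM1 (Trpm1) closed. Light stops the release, the G protein is switched off by the regulators RGS7 and RGS11 held by GPR179, the channel opens, and the cell depolarizes. Loss of Grm6, Trpm1, Nyx, Gpr179 or Lrit3 function causes congenital stationary night blindness, and the b-wave of the electroretinogram, which can be reduced in diabetes, is the electrical trace of this step. Bipolar cells are a minority of the cells in a whole retina, so that fewer ON bipolar cells and less RNA per cell cannot be told apart in these values.

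Libraries held between 7773117 and 22147398 counted reads (median 15406440), and the least abundant member, Nyx, still had 234 to 778 reads in each library. No 2 libraries of a group agreed within sampling noise (lowest chi-square per degree of freedom 1.86 among 113 pairs). In 3 control libraries (ZT1 replicate 6, ZT17 replicate 5 and ZT21 replicate 2), 4 lens genes together reached 1602, 1075 and 1247 CPM. CPM are counts per 1000000 counted reads, and the other libraries held at most 33.2 CPM of these genes. Markers of the pigment epithelium varied from 23.5 to 308 CPM in sum, and 4 of the 5 (Rpe65, Rgr, Lrat and Ttr) had a 24 h rhythm in both genotypes. The dependence of a library's counts on the GC content of the genes, given as a GC slope in log2 units per 10 percentage points of GC, was highest at ZT17, at 0.15 ± 0.259 (SD, n = 5) in control and 0.111 ± 0.219 (n = 4) in diabetic retinas, and lay between -0.0787 and 0.0219 in the other groups. Results for the 10 genes whose call moved with these measures are given with and without them.

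Levels were compared between genes as RPKM, the CPM divided by the exonic length in kilobases. In control retinas (n = 30) the most abundant were Prkca, the protein kinase Cα that marks rod bipolar cells, at 56.5 ± 3.33 RPKM (SD), and Pcp2, a regulator of Gαo, at 50.5 ± 9.86 RPKM. Gnao1 followed at 37.9 ± 5.42, Trpm1 at 34.2 ± 3.34, Lrit3 at 32.4 ± 1.79, Gpr179 at 29.1 ± 3.65 and Grm6 at 28.2 ± 4.36 RPKM. The lowest were Rgs11 at 13.7 ± 1.80, Rgs7 at 7.50 ± 0.586 and Nyx at 5.92 ± 0.715 RPKM. Prkca and Pcp2 lay within one SD of each other, as did each neighbouring pair from Gnao1 down to Grm6, while the steps from Pcp2 to Gnao1, from Grm6 to Rgs11, from Rgs11 to Rgs7 and from Rgs7 to Nyx exceeded the larger SD. The order of the 10 genes was the same in diabetic retinas (n = 28), from 54.2 ± 3.20 RPKM for Prkca to 5.41 ± 0.607 for Nyx.

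**Figure D1:**
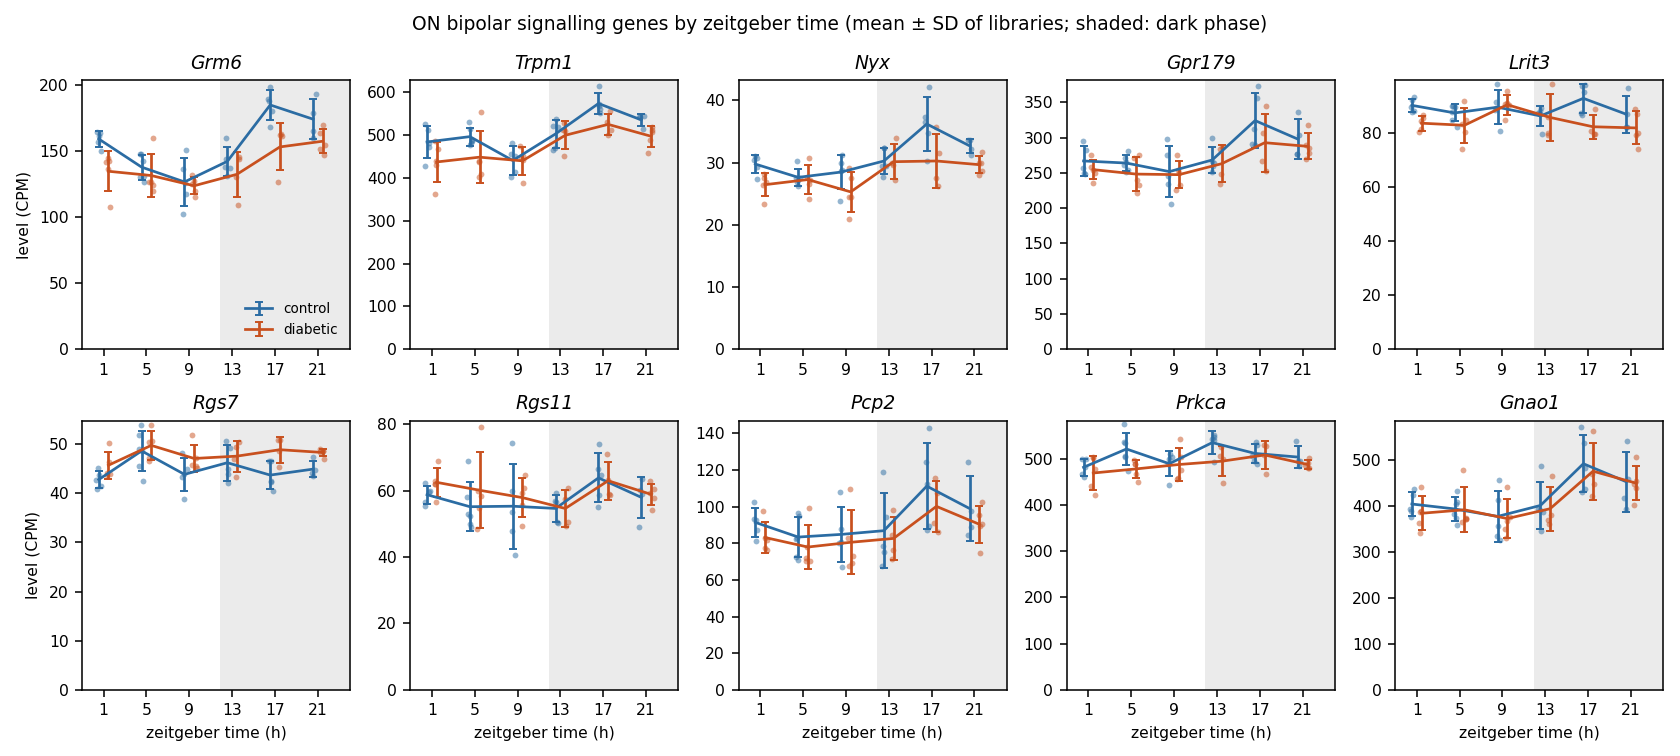
Level of each of the 10 genes in CPM against zeitgeber time (hours), with 1 point per library and the mean of each group, for control and diabetic retinas. In control retinas Grm6 had its highest mean at ZT17 and its lowest at ZT9, with no overlap of the libraries.

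The genes lie on 7 chromosomes of the GRCm38 assembly. Grm6 (ENSMUSG00000000617.14) spans 50850685 to 50866208 and Gpr179 (ENSMUSG00000070337.4) 97332109 to 97352077 on chromosome 11. The same chromosome holds Prkca (ENSMUSG00000050965.14) from 107933387 to 108343928. Trpm1 (ENSMUSG00000030523.18) lies on chromosome 7 from 64153835 to 64269775, and Nyx (ENSMUSG00000051228.5) on chromosome X from 13466110 to 13489313. On chromosome 8 are Gnao1 (ENSMUSG00000031748.16), from 93809966 to 93969388, and Pcp2 (ENSMUSG00000004630.18), from 3623371 to 3625545. Lrit3 (ENSMUSG00000093865.7) lies on chromosome 3 from 129787881 to 129804030, Rgs11 (ENSMUSG00000024186.15) on chromosome 17 from 26202951 to 26211324, and Rgs7 (ENSMUSG00000026527.13) on chromosome 1 from 175059087 to 175492500.

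The 250 bases before the RefSeq transcription starts (GRCm38.p6) are shown for the receptor gene Grm6, the channel gene Trpm1 and the genes of their surface partners, Nyx and Gpr179. Capitals mark matches on either strand to TAATCC, the core motif of the homeobox factors CRX and OTX2, to TAATTA, that of other homeobox factors, to CACGTG, the E-box of CLOCK:BMAL1 and related factors, to TTANGTAA, the D-box of DBP and related factors, and to AGGTCA, the half-site of nuclear receptors.
Grm6, chr11:50850435-50850684, plus strand: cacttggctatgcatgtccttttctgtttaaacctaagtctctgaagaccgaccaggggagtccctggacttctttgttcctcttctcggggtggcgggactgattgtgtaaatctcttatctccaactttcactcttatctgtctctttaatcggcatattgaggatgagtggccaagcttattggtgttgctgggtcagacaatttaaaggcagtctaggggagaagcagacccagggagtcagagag
Trpm1 first start, chr7:64153585-64153834, plus strand: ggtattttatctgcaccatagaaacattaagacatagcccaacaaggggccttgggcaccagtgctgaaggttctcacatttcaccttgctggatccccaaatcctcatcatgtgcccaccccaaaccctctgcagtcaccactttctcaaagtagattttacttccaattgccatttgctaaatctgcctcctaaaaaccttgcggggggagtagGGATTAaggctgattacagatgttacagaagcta
Trpm1 second start, chr7:64185209-64185458, plus strand: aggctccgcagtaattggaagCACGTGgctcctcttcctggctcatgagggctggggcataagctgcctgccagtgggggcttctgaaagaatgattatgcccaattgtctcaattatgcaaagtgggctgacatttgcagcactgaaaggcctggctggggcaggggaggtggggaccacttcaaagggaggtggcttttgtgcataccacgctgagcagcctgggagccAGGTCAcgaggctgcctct
Nyx, chrX:13460840-13461089, plus strand: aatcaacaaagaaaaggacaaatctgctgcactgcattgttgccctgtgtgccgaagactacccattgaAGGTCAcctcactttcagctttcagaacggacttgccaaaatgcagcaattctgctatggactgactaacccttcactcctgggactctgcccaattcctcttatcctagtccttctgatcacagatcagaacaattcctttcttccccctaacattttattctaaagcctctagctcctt
Gpr179, chr11:97352357-97352606, minus strand: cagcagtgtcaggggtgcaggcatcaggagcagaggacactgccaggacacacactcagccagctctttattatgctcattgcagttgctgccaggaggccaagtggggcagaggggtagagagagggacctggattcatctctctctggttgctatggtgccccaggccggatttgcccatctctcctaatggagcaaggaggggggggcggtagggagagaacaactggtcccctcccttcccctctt

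A match to these letters is a description and not a site of binding. RefSeq sequences were found for 9 of the 10 genes with 13 starts in all, and not for Rgs11. The windows of Grm6, Gpr179, Prkca and Gnao1 held none of the 5 motifs. Trpm1 had TAATCC on the opposite strand 34 bases before its first start, and CACGTG and AGGTCA 229 and 19 bases before its second start, which lies inside the gene. Among all 32851 promoters of this length, 6.25% held TAATCC, 6.02% CACGTG and 14.0% AGGTCA. Nyx also held AGGTCA, 181 bases before its start. So did 3 of the 4 starts of Pcp2, whose other start had TAATTA (4.84% of all promoters). The Pcp2 windows with AGGTCA at 87 and at 12 bases overlapped, and these matches were the same site. Lrit3 held TTANGTAA 33 bases before its start (2.06% of all promoters) and Rgs7 held CACGTG at 29 bases. The RefSeq start of Nyx lay upstream of the gene start given above, and several other genes also had RefSeq starts away from the positions above. Those positions came from a different release of the gene annotation than the one the study counted with.

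The first comparison asked which of these genes varied over 24 h in control retinas. Grm6, Trpm1, Nyx, Gpr179, Gnao1 and Pcp2 did, all with the highest level in the night, between ZT18.1 and ZT19.9, and with a peak 1.21 to 1.45 times the trough. Lrit3, Rgs7, Rgs11 and Prkca did not pass the test. The 6 of 10 called (edgeR quasi-likelihood F test on the cosine and sine terms, adjusted p under 0.05) compare with 12.5% of all genes tested, and the 6 called in the night with 6.47% (peak from ZT12 to ZT24) or 5.72% (ZT16 to ZT21). The median log2 amplitude, the height of the fitted cosine on the log2 scale, was 0.146 over the 10 genes and 0.101 over all genes tested.

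Grm6, the glutamate receptor at the tips of ON bipolar dendrites, had the strongest rhythm of the 10. Its level in control retinas was 161, 164, 157, 165 and 150 CPM at ZT1, ran from 127 to 148 CPM with a median of 137 among the 6 libraries of ZT5, and was 136, 126, 102, 151 and 118 CPM at ZT9. It was 137, 138, 131, 144 and 160 CPM at ZT13, 188, 181, 190, 199 and 168 CPM at ZT17, and 179, 160, 165 and 193 CPM at ZT21. Every library of ZT17 was above every library of ZT1, ZT5, ZT9 and ZT13, and the ZT17 mean of 185.1 ± 11.5 CPM was 1.46 times the ZT9 mean of 126.8 ± 18.5 CPM (SD, n = 5 each). In the order from ZT17 through ZT21, ZT1, ZT13 and ZT5 to ZT9, only ZT1 and ZT13 were neighbours apart by more than the larger SD. The fit gave Grm6 a log2 amplitude of 0.27 and a peak at ZT19.9 (edgeR adjusted p = 5.16e-07), and it ranked 81 of the 18814 genes by the p-value of this test.

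Trpm1, the channel that mGluR6 closes, was highest at ZT17 with 615, 562, 573, 568 and 551 CPM and lowest at ZT9 with 482, 455, 414, 450 and 402 CPM. These groups did not overlap, and their means of 573.7 ± 24.7 and 440.7 ± 32.7 CPM differed 1.30 times. ZT17 also stood above ZT21, ZT21 above ZT13 and ZT1 above ZT9 by more than the larger SD, while the means of ZT13, ZT5 and ZT1 did not. The log2 amplitude of Trpm1 was 0.14 and its peak at ZT18.9 (edgeR adjusted p = 0.00284).

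Nyx encodes nyctalopin, the surface protein that places TRPM1 at the dendritic tip. It was at 30.3, 36.5, 42.2, 34.8 and 37.3 CPM at ZT17 and between 26.2 and 30.3 CPM at ZT5 (n = 6), so that the lowest ZT17 library was level with the highest of ZT5 without crossing it. Its log2 amplitude was 0.18 with the peak at ZT18.1 (edgeR adjusted p = 0.000326).

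Gpr179, the orphan receptor that anchors RGS7 and RGS11, reached 373, 290, 356, 312 and 290 CPM at ZT17 against 276, 245, 206, 298 and 235 CPM at ZT9, with 1 library of ZT9 above the lowest of ZT17. Gnao1, the G protein subunit, was at 538, 438, 574, 483 and 431 CPM at ZT17 and at 357, 335, 327, 457 and 413 CPM at ZT9. Pcp2 was at 143, 89.2, 124, 112 and 87.4 CPM at ZT17 and between 71.0 and 96.7 CPM among the 6 libraries of ZT5. The extreme groups of all 3 genes thus overlapped, and their ZT17 libraries were widely spread. Their fitted peaks were at ZT18.8 for Gpr179 (log2 amplitude 0.15, edgeR adjusted p = 0.00285), ZT18.9 for Gnao1 (0.17, adjusted p = 0.0083) and ZT18.8 for Pcp2 (0.19, adjusted p = 0.0389).

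The genes that did not pass had the smaller amplitudes. Lrit3, a leucine-rich repeat protein of the photoreceptor terminal that reaches across to the bipolar dendrite, had a factor of 1.08 between its highest and lowest group means (edgeR adjusted p = 0.891). Prkca, by which bipolar cells are usually stained, had a factor of 1.11 (adjusted p = 0.494). The GTPase-accelerating proteins Rgs7 and Rgs11 had factors of 1.14 and 1.17 (adjusted p = 0.529 and 0.349). In each of these the libraries of the highest and the lowest group overlapped.

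In diabetic retinas 5 of the 10 genes had a 24 h rhythm by the same test, against 14.5% of all genes tested, and all 5 peaked in the night (7.43% of all genes had such a call with a peak from ZT12 to ZT24 and 5.62% from ZT16 to ZT21). These were Grm6, Trpm1, Gpr179, Gnao1 and Nyx. Without diabetic ZT17 replicate 3 only Grm6 and Trpm1 remained called, where 2190 of the 18814 genes passed. Grm6 and Trpm1 were also the members that passed a test of any difference between time points (1922 of all genes). The median log2 amplitude was 0.125 over the 10 genes and 0.104 over all genes.

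Grm6 in diabetic retinas was at 137, 142, 143, 145 and 108 CPM at ZT1, at 126, 127, 120, 125 and 160 CPM at ZT5 and at 120, 127, 115, 125 and 132 CPM at ZT9. It was at 110, 130, 146 and 144 CPM at ZT13, at 162, 161, 163 and 127 CPM at ZT17 and at 155, 164, 170, 147 and 152 CPM at ZT21. The libraries of ZT21, the highest group, stayed above those of ZT9, the lowest, and their means of 157.6 ± 9.28 and 123.9 ± 6.46 CPM differed 1.27 times. The log2 amplitude was 0.16 with the peak at ZT19.7 (edgeR adjusted p = 0.0020).

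Trpm1 was at 501, 557, 511 and 532 CPM at ZT17 and at 439, 487, 431, 467 and 363 CPM at ZT1, its lowest diabetic group, without overlap. Its log2 amplitude of 0.14 was that of control retinas, and its peak was at ZT16.9 (edgeR adjusted p = 0.00448). Gpr179 peaked at ZT18.4 (log2 amplitude 0.13, adjusted p = 0.0179) and Gnao1 at ZT18.6 (0.16, adjusted p = 0.0182). Nyx was the weakest call, with a log2 amplitude of 0.12 and a peak at ZT17.4 (adjusted p = 0.0393). Pcp2 had an amplitude of 0.15 at an edgeR adjusted p of 0.139, or 0.0458 with the replicate number of the library as a block. Lrit3, Prkca, Rgs11 and Rgs7 had adjusted p from 0.237 to 0.974.

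**Figure D2:**
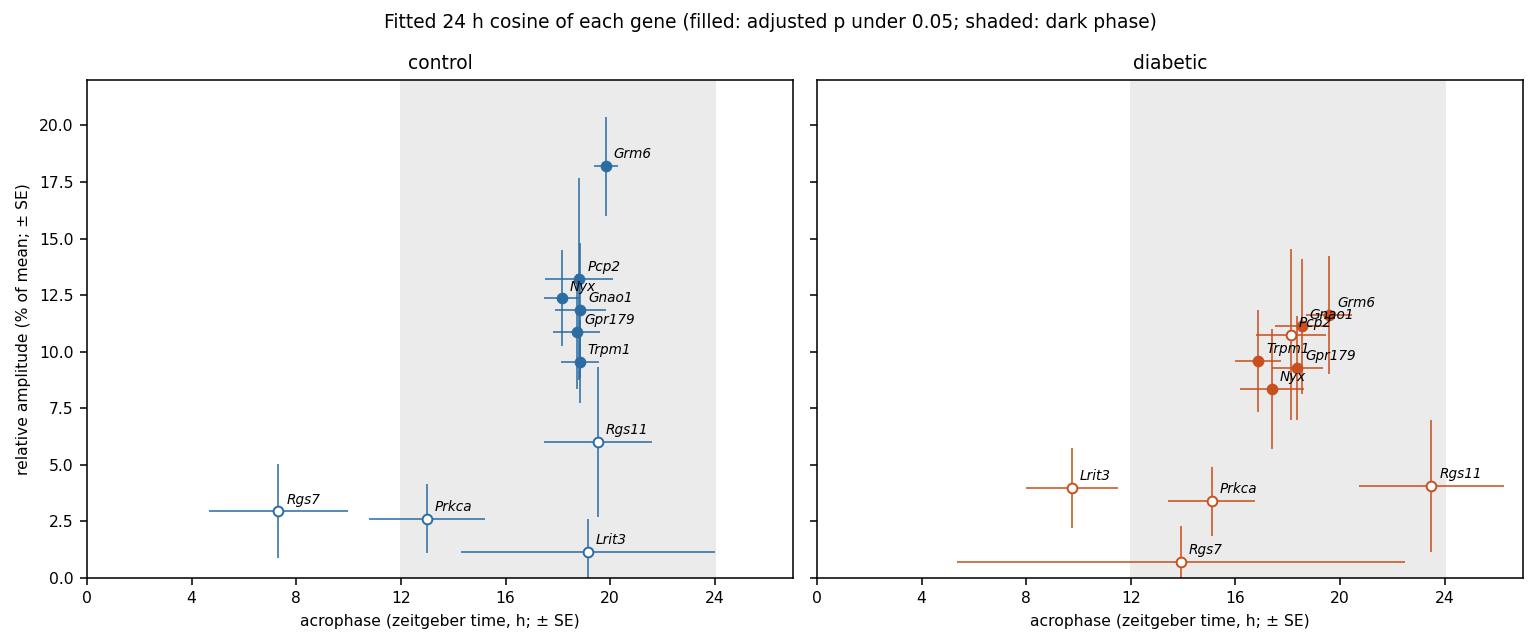
Time of the peak (zeitgeber time, hours) and relative amplitude (percent of the mean level) of the 10 genes from a cosine fitted to normalized counts, with standard errors, in control and diabetic retinas. In control retinas the genes that passed the test lie between ZT18 and ZT20, with Grm6 at the largest amplitude of 18.2%.

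Some of the genes also varied with the GC slope. Within the 12 groups the correlation of a gene's deviations with those of the GC slope (58 libraries, description only) was 0.81 for Gnao1, 0.80 for Pcp2 and 0.67 for Gpr179, 0.51 for Rgs11 and -0.46 for Rgs7. It was 0.34 for Nyx, 0.29 for Grm6, 0.21 for Lrit3, 0.09 for Prkca and -0.03 for Trpm1. With the GC slope as a covariate, chosen after seeing the data, 5 genes remained called in control retinas (13.0% of all genes) without Pcp2 (edgeR adjusted p = 0.105). In diabetic retinas 4 remained (21.0% of all genes), with Nyx at an adjusted p of 0.0501. Without the 9 libraries of ZT17, which leaves 5 time points, only Grm6 kept its call, at an adjusted p of 0.000338 in control (4.13% of all genes called) and 0.0122 in diabetic retinas (7.33%). With the pigment epithelium markers as a covariate, 6 genes in control (11.9% of all genes) and 4 in diabetic retinas (9.38%) were called, the lost one being Nyx (adjusted p = 0.115). Without the 3 control libraries that held lens RNA the counts were 6 (11.5% of all genes) and 5 (14.3%).

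**Figure D3:**
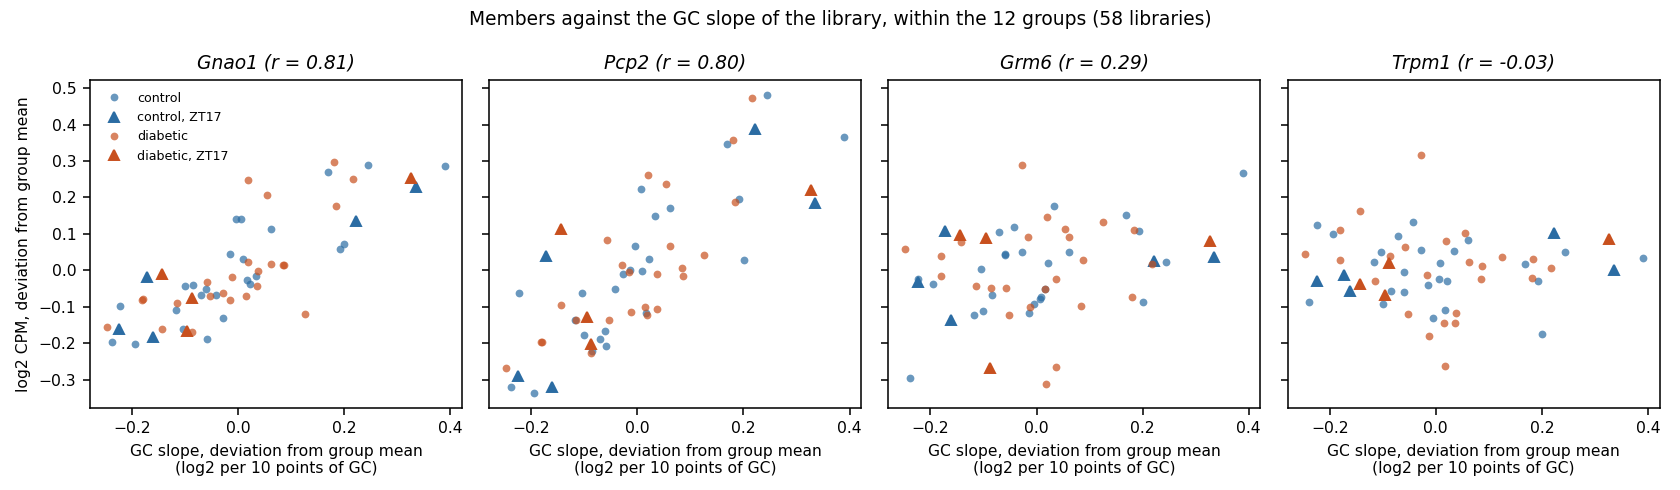
Log2 CPM of Gnao1, Pcp2, Grm6 and Trpm1 against the GC slope of the library (log2 units per 10 percentage points of GC). Both are deviations from the group mean, with 1 point for each of 58 libraries and those of ZT17 marked. The correlation is 0.81 for Gnao1, 0.80 for Pcp2, 0.29 for Grm6 and -0.03 for Trpm1.

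A rank test of cosine-like waveforms (empirical JTK, p under 0.05 with a minimum fold), close to the test in the study's methods, called 5 genes in control retinas, against 22.1% of all genes, and 6 in diabetic retinas, against 24.2%. Both sets held Grm6, Trpm1, Nyx, Gpr179 and Gnao1. Pcp2 had p = 0.0541 in control and p = 0.0273 in diabetic retinas by this permutation test.

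The next comparison asked whether the daily variation itself differed between diabetic and control retinas. None of the 10 genes passed (edgeR F test on the differences of the cosine and sine terms, all adjusted p = 1.0), and 0.0% of all genes did. None had an unadjusted p under 0.05 and DESeq2 called none. The smallest unadjusted p from the fit across all genes were 0.134 for Lrit3 and 0.135 for Grm6. On normalized counts the relative amplitude of Grm6 was 18.2% ± 2.18 (SE) of its mean in control and 11.6% ± 2.61 in diabetic retinas, a difference of -6.58 ± 3.40 percentage points. The peak of Trpm1 was at ZT18.8 ± 0.737 h in control and at ZT16.9 ± 0.878 h in diabetic retinas, a difference of -1.97 ± 1.15 h. Nyx had relative amplitudes of 12.4% ± 2.12 and 8.35% ± 2.66, and Gpr179, Gnao1 and Pcp2 had acrophases within 1 h of each other in the 2 genotypes.

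Between diabetic and control retinas over all time points, no gene of the 10 passed the test, where 3.11% of all genes did (edgeR, adjusted p under 0.05). At an unadjusted p under 0.05 there were 6, Rgs7, Nyx, Lrit3, Grm6, Prkca and Trpm1, against 15.5% of all genes (edgeR), and also 6 by DESeq2, against 15.6%. DESeq2 called 1 after adjustment, Rgs7 (adjusted p = 0.0467), against 3.57% of all genes. The diabetic mean was below the control mean for 8 of the 10 genes, all but Rgs7 and Rgs11, and the median log2 difference was -0.071 for the 10 genes and 0.002 for all genes tested. All fitted differences were under 10% in size.

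Among the receptor and channel genes, Grm6 ran from 102 to 199 CPM with a median of 150.5 in control and from 108 to 170 CPM with a median of 139.2 in diabetic retinas, a fitted difference of -9.41% (log2 -0.14 ± 0.052 SE, edgeR adjusted p = 0.135). Nyx had 23.8, 30.3 and 42.2 CPM as lowest, median and highest value in control and 20.9, 27.6 and 35.7 CPM in diabetic retinas (-8.58%, adjusted p = 0.0878). Trpm1 had 402, 512 and 615 CPM against 363, 470.5 and 557 CPM (-6.40%, adjusted p = 0.186). The ranges overlapped broadly in all 3.

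Rgs7, which speeds the switching-off of the G protein, had the higher mean in diabetic retinas, with 38.8, 44.5 and 54.0 CPM in control and 43.4, 47.8 and 53.9 CPM in diabetic retinas (6.05%, log2 0.08 ± 0.027, edgeR adjusted p = 0.0684). Lrit3 differed by -4.96% (adjusted p = 0.0980) and Prkca by -4.14% (adjusted p = 0.175). The other differences were -7.46% for Pcp2, -4.64% for Gpr179, -2.04% for Gnao1 and 3.56% for Rgs11, with adjusted p from 0.399 to 0.861.

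Other fits called some of the genes. With the replicate number of the library as a block in the fit, Rgs7 passed (edgeR adjusted p = 0.0457), where 507 of the 18814 genes did. The mean of the 6 single time point differences called Grm6 (edgeR adjusted p = 0.0092), Nyx (0.0178) and Rgs7 (0.0276), where 4.71% of all genes passed. With the GC slope as a covariate 5 genes passed, against 7.48% of all genes. These were Nyx (edgeR adjusted p = 0.0202), Lrit3 (0.0412), Pcp2 (0.0416) and Grm6 (0.0496), lower in diabetic retinas, and Rgs7 (0.0159), higher. Leaving out single libraries gave 0 to 2 calls, Nyx without control ZT9 replicate 3, diabetic ZT17 replicate 3 or diabetic ZT13 replicate 5, Lrit3 without diabetic ZT9 replicate 3 or diabetic ZT13 replicate 5, and Rgs7 without control ZT13 replicate 2, control ZT5 replicate 4 or control ZT5 replicate 6.

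At single time points none of the 60 differences passed (edgeR), and DESeq2 called none either. An unadjusted p under 0.05 was found for 10 of the 60 by edgeR and for 11 by DESeq2, against 5.69% and 5.42% of the differences of all genes over the 6 time points. After adjustment (edgeR), 0.0106% of all genes passed at ZT1, 0.0213% at ZT5, 0.00532% at ZT9, 0.175% at ZT17 and 0.0% at ZT13 and ZT21. From ZT1 to ZT21, 8, 8, 7, 9, 9 and 8 of the 10 genes had the lower mean in diabetic retinas, and the median log2 difference was -0.09, -0.07, -0.01, -0.02, -0.14 and -0.07.

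At ZT17, the members with an unadjusted p under 0.05 were Nyx, Grm6, Lrit3 and Rgs7. The others were Grm6, Trpm1 and Nyx at ZT1, Trpm1 and Prkca at ZT5, and Nyx at ZT9. The share of all genes with such a p was taken over the time points together and not at each. Grm6 at ZT17 was between 127 and 163 CPM in the diabetic libraries and between 168 and 199 CPM in the control libraries, so that the groups did not overlap (log2 -0.27 ± 0.089, edgeR adjusted p = 0.214). Its 2 groups did not overlap at ZT1 either, where the diabetic libraries ended at 145 CPM and the control libraries began at 150 CPM (log2 -0.24 ± 0.084, adjusted p = 0.619). Lrit3 at ZT1 was at 81.2, 85.5, 84.2, 80.1 and 86.3 CPM in diabetic and at 87.5, 88.0, 89.5, 92.1 and 93.1 CPM in control retinas (log2 -0.11 ± 0.058). Of all genes, 0.877% did not overlap at ZT1 and 1.94% at ZT17, and 1.11%, 0.744%, 1.05% and 2.18% at ZT5, ZT9, ZT13 and ZT21, where no member had groups apart. Nyx at ZT17 differed by -0.26 ± 0.084 on the log2 scale (adjusted p = 0.203), Lrit3 by -0.17 ± 0.061 (0.282) and Rgs7 by 0.16 ± 0.063 (0.366), all with overlap.

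**Figure D4:**
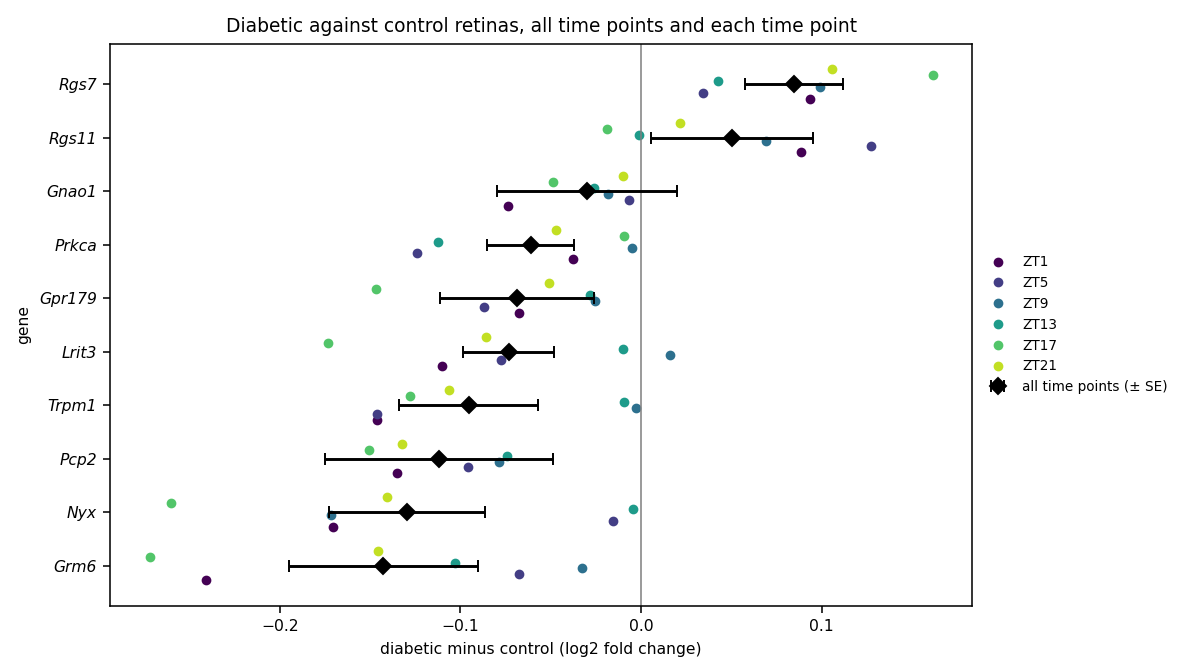
Difference of diabetic minus control retinas on the log2 scale for the 10 genes, over all time points with standard errors. Points without standard errors give the difference at each zeitgeber time. Over all time points 8 genes lie below 0, Grm6 lowest at -0.14, and Rgs7 and Rgs11 above 0.

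Libraries of the same genotype and time point also differed from each other, and the next question was which of the genes varied together. Over the 45 pairs, the median Pearson correlation of the log2 CPM deviations from the 12 group means was 0.21 (58 libraries). By permutation within groups 15 pairs passed an adjusted p of 0.05, 14 of them positive, and 15 passed by Spearman's rho. Such correlations were common in these libraries. A size of r at or past the smallest called, 0.36, was found in 33.3% of the 45 pairs, in 23.6% of the pairs of all genes tested (median r -0.001) and in 49.5% of the pairs among the 6484 genes at least as abundant as Nyx, the lowest member (median r 0.03). The number of correlated pairs is therefore not particular to the 10 genes. Grm6 and Trpm1 varied together with r = 0.63 (permutation p = 7e-05, adjusted p = 0.000394, 0.57 without the 2 libraries farthest from the median) and rho = 0.58 (p = 2e-05, adjusted p = 0.00015). Their r was 0.67 after a linear trend on the GC slope was removed. Trpm1 and Gpr179 had r = 0.57 (permutation adjusted p = 7.5e-05, rho = 0.62), and 0.79 after removal of the trend.

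The highest correlation was between Pcp2 and Gnao1, with r = 0.88 (0.87 without the 2 farthest libraries) and rho = 0.84, each at a permutation p of 1e-05, the smallest that 100000 permutations can give (adjusted p = 7.5e-05 and 9e-05). It was 0.68 after the GC trend was removed. Gpr179 and Gnao1 went from 0.69 to 0.34 in the same way (permutation adjusted p = 7.5e-05 and 0.0456). Before the removal, Lrit3 and Rgs7 were the pair among the 15 that varied in opposite directions (r = -0.43, permutation p = 0.00157, adjusted p = 0.00642, rho = -0.40, adjusted p = 0.0175, r = -0.40 without the 2 farthest). After the removal 18 pairs passed, 15 of them positive, and the other 3 were Lrit3 with Rgs7 (r = -0.39), Pcp2 (-0.33) and Gnao1 (-0.43), with permutation adjusted p of 0.0135, 0.0456 and 0.0253. Trpm1 and Nyx had r = -0.01 (permutation p = 0.921).

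**Figure D5:**
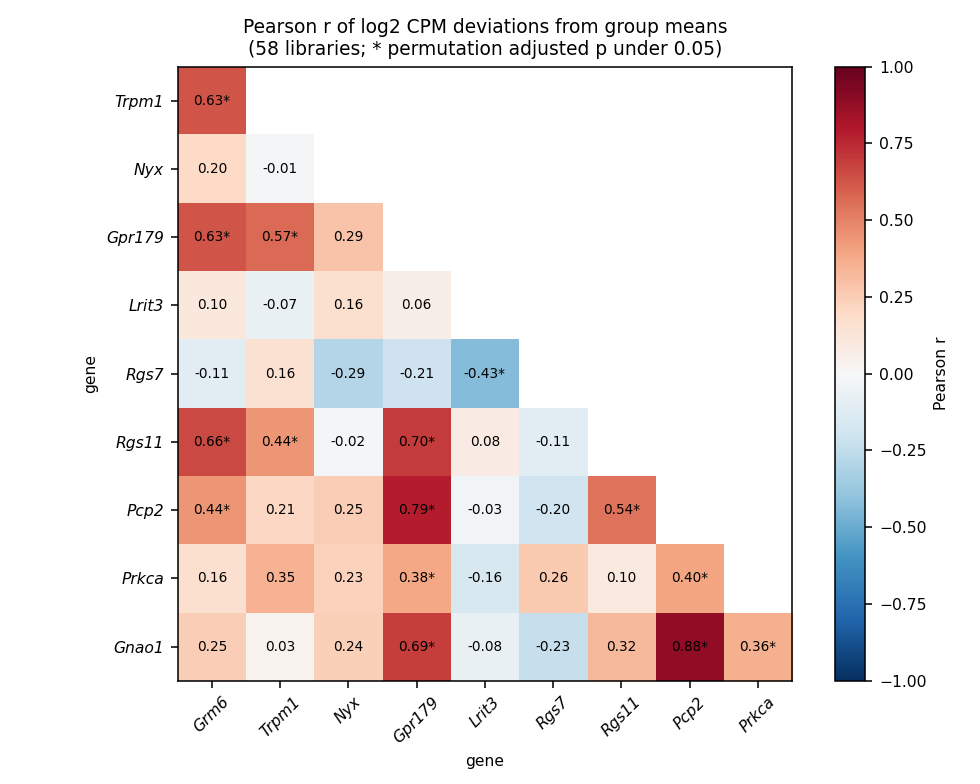
Pearson correlation between each pair of the 10 genes over 58 libraries, from log2 CPM deviations from the 12 group means. The linear trend on the GC slope was not removed. Pcp2 and Gnao1 have the highest value (r = 0.88), and Trpm1 and Gpr179 have 0.57.

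Outside the 10 genes, those whose log2 CPM followed Grm6 most closely over the 58 libraries, group differences included, were Gnb3 (r = 0.80), Dlg4 (0.80), Ttyh1 (0.80), Unc13a (0.76) and Slc1a7 (0.76). For Trpm1 they were the transcripts Gm20682 (r = 0.78) and Gm9195 (0.78) and the genes Slc24a4 (0.77), Wscd2 (0.75) and Lrrtm4 (0.75). These genes were picked for their likeness, and the correlations are a description. Within groups, the values were between 0.46 and 0.67.

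The partners of the cascade that are not among the 10 include the β and γ subunits of the G protein and the anchors of the RGS proteins. Of 5 tested, 3 had a 24 h rhythm in control retinas, Gnb3 (peak ZT20.5, edgeR adjusted p = 0.0023), Gng13 (ZT17.8, 0.0279) and Gnb5 (ZT16.0, 0.0001), and 3 in diabetic retinas, Gnb3 (0.0363), Gnb5 (0.0001) and Rgs9bp (peak ZT11.5, 0.0361). Gnb3, the Gβ subunit used by ON bipolar cells and cones, was the 1 partner lower in diabetic retinas over all time points (log2 -0.16 ± 0.036, edgeR adjusted p = 0.0048), and Rgs7bp passed no test. With the GC slope as a covariate, Gng13 was at an adjusted p of 0.0656 in control and 0.0118 in diabetic retinas. Among 8 partners in the photoreceptor terminal, such as Elfn1, Egflam and Cacna1f, Cacna2d4 had a rhythm in control retinas (adjusted p = 0.0025). Egflam had 1 in diabetic retinas (adjusted p = 0.0384), and none passed the genotype test. With the GC slope as a covariate, Slc17a7 passed the genotype test (edgeR adjusted p = 0.00658). Cacna2d4 (0.0384) and Cacnb2 (0.0325) were then also rhythmic in diabetic retinas.

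Among 15 paralogues, Gnaz, a relative of Gnao1, had log2 amplitudes of 0.45 (control) and 0.42 (diabetic), above that of any of the 10 genes, with peaks at ZT18.6 and ZT17.6. Trpm3 was called in both genotypes (edgeR adjusted p = 0.0428 and 0.0320), Grm7 and Gpr158 in diabetic retinas (0.0082 and 0.0202), and no paralogue passed the genotype test. With the GC slope as a covariate, Lrit2 was also called in control (edgeR adjusted p = 0.000985) and Gnai2 in diabetic retinas (0.0273).

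Markers of rod bipolar cells, the most numerous ON bipolar type, were compared to see whether the cells' other transcripts varied alike. Tpbg, Car8, Cabp5 and Sebox had a rhythm in each genotype, but in control retinas Tpbg (ZT5.5) and Car8 (ZT8.3) peaked in the day and Cabp5 (ZT18.8) and Sebox (ZT18.4) in the night. With the GC slope as a covariate, Sebox was not called in control retinas (adjusted p = 0.0691). Tpbg was lower in diabetic retinas (log2 -0.22, edgeR adjusted p = 0.0213). Sebox passed the genotype test too when the GC slope was a covariate (edgeR adjusted p = 0.00279). The summed CPM of the 6 rod bipolar markers at ZT17 was 1.02 times that at ZT9 in control and 1.05 times in diabetic retinas, where the 10 signalling genes had 1.22 and 1.16. For markers shared by all bipolar cells the ratios were higher, 1.29 and 1.23. For ON cone bipolar markers they were 1.17 and 1.14, for OFF cone bipolar markers 1.15 and 1.14, for Muller glia markers 1.14 and 1.14 and for rod markers 1.04 and 0.998. The differences between these ratios were not tested.

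Reads of genes that overlap on opposite strands cannot be told apart without a strand setting, which is not stated in the sources used here. Pcp2 shares 941 exonic bases with Pet100, which had a mean of 152 counts against 1342 for Pcp2, and Grm6 shares 599 with Gm12660, with 36.8 counts against 2199. Gnao1 shares 284 with 4930488L21Rik (21.2 counts against 6271) and Rgs11 shares 138 with Arhgdig (54.2 against 877).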

How the data were processed

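RNA-seq of 58 mouse retina libraries (rRNA-depleted total RNA, KAPA HyperPrep) was analysed from the table of raw gene counts deposited by the authors. Per the study's methods and the submitters' processing notes, reads were aligned with STAR 2.7.4a to GRCm38.p5 and counted per gene with HTSeq 0.11.1. Of 52459 rows, 15226 had no count. Depth per library ran from 7773117 to 22147398 counts, and all 58 columns were mapped by their labels.

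Genes were filtered with filterByExpr over the 12 genotype by time groups (18814 kept), scaled by TMM and tested with edgeR 4.0.16 (R 4.3.3) by quasi-likelihood F tests with Benjamini-Hochberg adjustment over all genes tested. The designs were genotype alone, the 12 groups, and an intercept with 24 h cosine and sine per genotype. Peak times on normalized counts and relative amplitudes came from least squares. RPKM was computed from the deposited counts over the union of exons. Correlations used log2 CPM with a prior count of 2 and 100000 permutations within groups. DESeq2 1.42.0, other scaling, no filter, a replicate block, single libraries left out and empirical JTK (200000 shuffled series) were alternatives, and covariates for GC content and other tissue, and fits without ZT17 or without the 3 libraries with lens RNA, were chosen after seeing the data. The scripts were tested on simulated counts.

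All 10 members are named, with the 5 genes most correlated with Grm6 and with Trpm1 and up to 4 genes of each list by smallest p, except some that are not reported here. The members and lists were chosen with earlier results of these data known. The labels give no litter, batch or day, so p-values measure the spread between these retinas.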

Additional observations from a re-analysis of the deposited data

Results flagged for a closer look

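In 11 of the 120 groups of 4 to 6 libraries (10 genes in 12 genotype by time groups), 1 library stood far from the others of its group by Dixon's criterion at the 95% level. Chance alone flags about 1 in 20 groups, or 6 of 120.

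For Grm6, diabetic ZT1 replicate 5 had 108 CPM where the others had 137 to 145 CPM, and diabetic ZT17 replicate 5 had 127 CPM where the others had 161 to 163 CPM. Diabetic ZT5 replicate 5 was high, at 160 CPM for Grm6 (others 120 to 127 CPM) and at 554 CPM for Trpm1 (others 403 to 439 CPM). Trpm1 was low in control ZT21 replicate 1, at 513 CPM against 542 to 544 CPM. Nyx was high in control ZT5 replicate 3, at 30.3 CPM against 26.2 to 27.5 CPM. Lrit3 was low in control ZT13 replicate 1, at 79.5 CPM against 86.8 to 89.1 CPM, and high in diabetic ZT17 replicate 3, at 88.9 CPM against 79.6 to 80.5 CPM. Diabetic ZT5 replicate 4 was high for Pcp2, at 99.0 CPM against 70.2 to 78.1 CPM, and for Gnao1, at 479 CPM against 366 to 374 CPM. Prkca was low in control ZT13 replicate 5, at 493 CPM against 540 to 552 CPM.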

How the results depend on the processing

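No result changed its direction. Genotype over all time points had 0 calls among the 10 genes, but 1 with the replicate block (Rgs7, edgeR adjusted p = 0.0457), 1 with DESeq2 (Rgs7), 3 as the mean of the 6 contrasts and 5 with the GC slope as a covariate, and 0 to 2 when single libraries were left out. Rhythm in control retinas had 1 call in place of 6 without ZT17, and 5 to 6 without single libraries. Pcp2 was lost without any of 11 single control libraries (adjusted p up to 0.143, without ZT17 replicate 1). In diabetic retinas the 5 calls became 1 without ZT17, 2 as any difference between time points (Grm6, adjusted p = 0.0129, and Trpm1, 0.0135), and 2 to 6 without single libraries. The lowest was without diabetic ZT17 replicate 3, which took out Gpr179 (0.0757), Gnao1 (0.0694) and Nyx (0.164). Nyx was also lost without a filter on low counts (0.0661) and without any of 8 other single diabetic libraries, while Pcp2 came in with the replicate block (0.0458) and without diabetic ZT9 replicate 4 (0.0448). The cause of these changes was not tested. Same-numbered libraries deviated together in 20 of 26 pairs (r over 0.1), with a lowest r of -0.54. Their median r was 0.33, against -0.10 for different numbers. The labels do not say what the numbers share, so they were not taken as pairing, and a shared processing step was not tested. The block changed no other call of a member. With it, 507 of all genes had a genotype call, and 3104 had a rhythm call in control and 3060 in diabetic retinas. Over all genes, the 586 genotype calls became 387 without the filter, 886 as the mean of contrasts and 1408 with the GC slope. Rhythm calls went from 2358 to 768 (control) and from 2731 to 1364 (diabetic) without ZT17, to 4154 and 4551 by JTK, and to 1764 in diabetic retinas with pigment epithelium markers as a covariate. Calls at ZT17 went from 33 to 62 with the block, 90 by DESeq2, 280 with the GC slope and 1 to 90 without single libraries, and other time points stayed at or under 24 in every fit. Rhythm differences went from 0 to 3 without the filter, 10 with the block and 2 without ZT17. Groups of 4 to 6 libraries limit single time points.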

Other observations

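Markers of other retinal cells were counted in the same fits (edgeR, adjusted p under 0.05). Among 7 cone markers, Pde6h (adjusted p = 0.0016) and Gnat2 (0.0073), both parts of the cone phototransduction cascade, were lower in diabetic retinas, and 4 had a rhythm in control and 3 in diabetic retinas. Of 8 rod markers, Pde6a was lower (0.0471), and 3 had a rhythm in each genotype. Rhythms were found in control and diabetic retinas for 2 and 2 of the 6 ON cone bipolar markers (Scgn and Kcng4) and 3 and 3 of the 9 OFF cone bipolar markers (Grik1, Vsx1 and Zfhx4), and none in these lists passed the genotype test. With the GC slope as a covariate, Kcng4 (adjusted p = 0.194) and Zfhx4 (0.0650) were not called in control retinas.

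Of 6 Muller glia markers 2 (Glul and Aqp4) were rhythmic in each genotype and none passed the genotype test. Chat, of the 6 amacrine markers, was higher (adjusted p = 0.0429) and Cx3cr1, of the 5 microglia markers, was lower in diabetic retinas. Slc6a9 was the 1 rhythmic amacrine marker, in diabetic retinas, and no microglia marker was rhythmic. The 4 horizontal and 6 ganglion cell markers passed no test. Of 4 endothelial markers 1 was rhythmic in each genotype (Cldn5), and none passed the genotype test. No pigment epithelium marker passed the genotype test. Of the 4 lens markers tested, all were rhythmic in control retinas (Crygd at an adjusted p of 0.0526 with the GC slope as a covariate) and Cryaa was lower in diabetic retinas, and the 3 libraries with lens RNA were control libraries.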
